A study of Mus musculus with 10 samples.

Results

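The 10 genes described here belong to the insulin-like growth factor (IGF) system: the ligands *Igf1* and *Igf2*, the receptors *Igf1r* and *Igf2r*, and the genes of the binding proteins, *Igfbp2*, *Igfbp3*, *Igfbp4*, *Igfbp5*, *Igfbp7* and *Igfbpl1*. They were found by their gene symbols, and all 10 were among the 32285 genes of the count matrices. IGF ligands are secreted peptides that drive growth of the embryo by activating the receptor tyrosine kinase encoded by *Igf1r*. The product of *Igf2r* takes up IGF2 and delivers it to lysosomes, so that less of the ligand reaches the signalling receptor, and *Igf2* and *Igf2r* are imprinted genes. IGF binding proteins hold the ligands outside the cell, prolong their life and limit or localise their access to the receptor, and several are cut by proteases that release the ligand. In developing organs, teeth included, ligands and binding proteins are often made by different tissues, which is why the levels are given by tissue lineage.

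The study compared single cells of the lower jaw of wild-type NMRI mice, without treatment, at 3 embryonic (E) stages around the establishment of the incisor stem cell niche. Whole mandibles were taken at E11.5 and lower incisor buds at the later pair of stages, E14.5 and E16.5, so stage and dissected tissue cannot be told apart between E11.5 and the later stages. By the labels 4, 4 and 2 samples were collected, in order of stage, and mandibles of several litters were processed for each stage, but each stage is 1 matrix whose barcodes are not tied to samples. Each stage was therefore 1 sample, no p-value was computed, and every interval given is a 95% interval that covers counting error only.

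Counts are of unique molecular identifiers (UMIs), each of which stands for 1 captured RNA molecule. Barcodes with 700 genes or more, and no more than 20% of UMIs from mitochondrial genes, were kept. These were 6573, 6091 and 4511 cells in order of stage, with median depths of 5664, 3471 and 6260 UMIs. Barcodes shared between 2 stages numbered 13 to 17. The E11.5 matrix stood apart in holding 0 UMIs of the Y-linked genes *Ddx3y*, *Eif2s3y*, *Kdm5d* and *Uty*, whereas *Ddx3y* had 588 and 720 UMIs at the later stages. The sex of the embryos and the stage cannot be told apart, and no comparison with E11.5 could be made without that matrix. A cell was assigned to a lineage if at least 3 markers of that lineage and of no other were detected, which gave 5327, 4495 and 2312 mesenchymal cells at the 3 stages, 695 and 1455 epithelial cells at E14.5 and E16.5, and 61, 134 and 106 endothelial cells. The 12 epithelial markers had 2195 and 2815 CPM (UMIs of a gene scaled to a common total of 1e6 UMIs over the cells of a group) in sum in epithelial cells, against 65.9 and 118 CPM in mesenchymal cells of the same stages, a difference that the assignment itself fixes. At E11.5 no more than 9 cells were epithelial, so no level of E11.5 epithelium is compared. Immune cells of E14.5 (111 cells) and erythroid cells of E11.5 (104 cells) are given beside the other lineages, since free RNA can add UMIs to any cell, and cells with markers of several lineages (116, 327 and 460) were left out. None of the 10 genes was used to assign cells.

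The binding protein genes *Igfbp2* and *Igfbp5* lie next to each other. On GRCm38, *Igfbp2* spans chr1:72824503-72852474 on the plus strand and *Igfbp5* spans chr1:72857932-72874884 on the minus strand, with 5457 bases between them. Both had higher levels over all epithelial cells than over all mesenchymal cells, though short of 2-fold for *Igfbp5*. *Igfbp4* (chr11:99041244-99054392, plus strand) had the opposite pattern. The 250 bases before the RefSeq start of these 3 genes are shown for that contrast, 5′ to 3′ on the strand of the gene (RefSeq, GRCm38.p6), with motif matches on either strand in capitals. The first motif searched was GGGCGG, known as the core of the binding site of SP1. The other was TATAAA, which the general transcription machinery binds in many promoters. For *Igfbp2* the first of its 2 listed starts is used.
Igfbp2 (chr1:72824230-72824479, plus strand): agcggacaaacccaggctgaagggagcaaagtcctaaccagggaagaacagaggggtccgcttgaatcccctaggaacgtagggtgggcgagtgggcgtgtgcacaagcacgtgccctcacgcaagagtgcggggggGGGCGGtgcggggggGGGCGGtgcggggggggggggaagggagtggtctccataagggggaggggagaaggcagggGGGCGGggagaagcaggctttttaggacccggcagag
Igfbp5 (chr1:72874866-72875115, minus strand): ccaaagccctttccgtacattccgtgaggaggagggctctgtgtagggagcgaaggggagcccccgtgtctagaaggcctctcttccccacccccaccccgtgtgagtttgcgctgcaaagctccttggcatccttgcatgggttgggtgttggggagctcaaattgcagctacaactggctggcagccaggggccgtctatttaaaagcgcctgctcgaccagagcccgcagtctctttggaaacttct
Igfbp4 (chr11:99040994-99041243, plus strand): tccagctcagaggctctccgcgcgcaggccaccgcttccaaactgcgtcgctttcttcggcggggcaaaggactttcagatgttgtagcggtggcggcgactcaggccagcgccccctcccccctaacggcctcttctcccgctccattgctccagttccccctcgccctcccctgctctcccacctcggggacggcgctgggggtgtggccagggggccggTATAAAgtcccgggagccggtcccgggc

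The window of *Igfbp2* held 3 matches to GGGCGG, the nearest beginning 37 bases before the start, and its GC content was 67.2%. At the other listed start of *Igfbp2*, not shown, the window held neither motif and had a GC content of 56.4%. The window of *Igfbp5* held neither motif and had a GC content of 58.8%, and that of *Igfbp4* held 1 TATAAA beginning 28 bases before the start, at a GC content of 69.2%. Of 32851 windows of the same length, 32.7% held GGGCGG and 12.4% held TATAAA, and the matches of the 2 motifs did not overlap in the windows shown. The other members are at chr10:87858265-87937042 (*Igf1*), chr7:142650766-142666816 (*Igf2*), chr7:67952827-68233668 (*Igf1r*), chr17:12682406-12769664 (*Igf2r*), chr11:7206086-7213923 (*Igfbp3*), chr5:77349240-77408041 (*Igfbp7*) and chr4:45809468-45826923 (*Igfbpl1*), with *Igf1* and *Igf1r* on the plus strand and the other five on the minus strand. These are whole gene spans, exons and introns together (GENCODE vM21). *Igf1*, *Igf2*, *Igf2r* and *Igfbp7* overlap annotated genes on the opposite strand (*Igf1os*, *Igf2os*, *Airn*, and *Polr2b* and *Gm34648*), and whether strand was used in counting is not given in the sources used here.

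The main pattern was a division of the members between tissues. The ligands had lower levels in epithelium than in mesenchyme, epithelium had the higher levels of *Igfbp2* and *Igfbpl1*, and endothelium had the higher level of *Igfbp3*. *Igfbp5* was higher in epithelium than in mesenchyme over all cells, but short of 2-fold. At E14.5 most of its epithelial UMIs came from 1 cluster of cells (described below). The other epithelial clusters had 30.0 to 122 CPM, against 213 CPM in mesenchyme, which was uneven as well. *Igf1r* stayed within 2-fold of mesenchyme in epithelium and endothelium. Levels of different genes are compared per captured molecule, since each UMI is counted once at the 3′ end whatever the length of the transcript. Whether the genes are captured equally well was not tested.

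**Figure D1:**
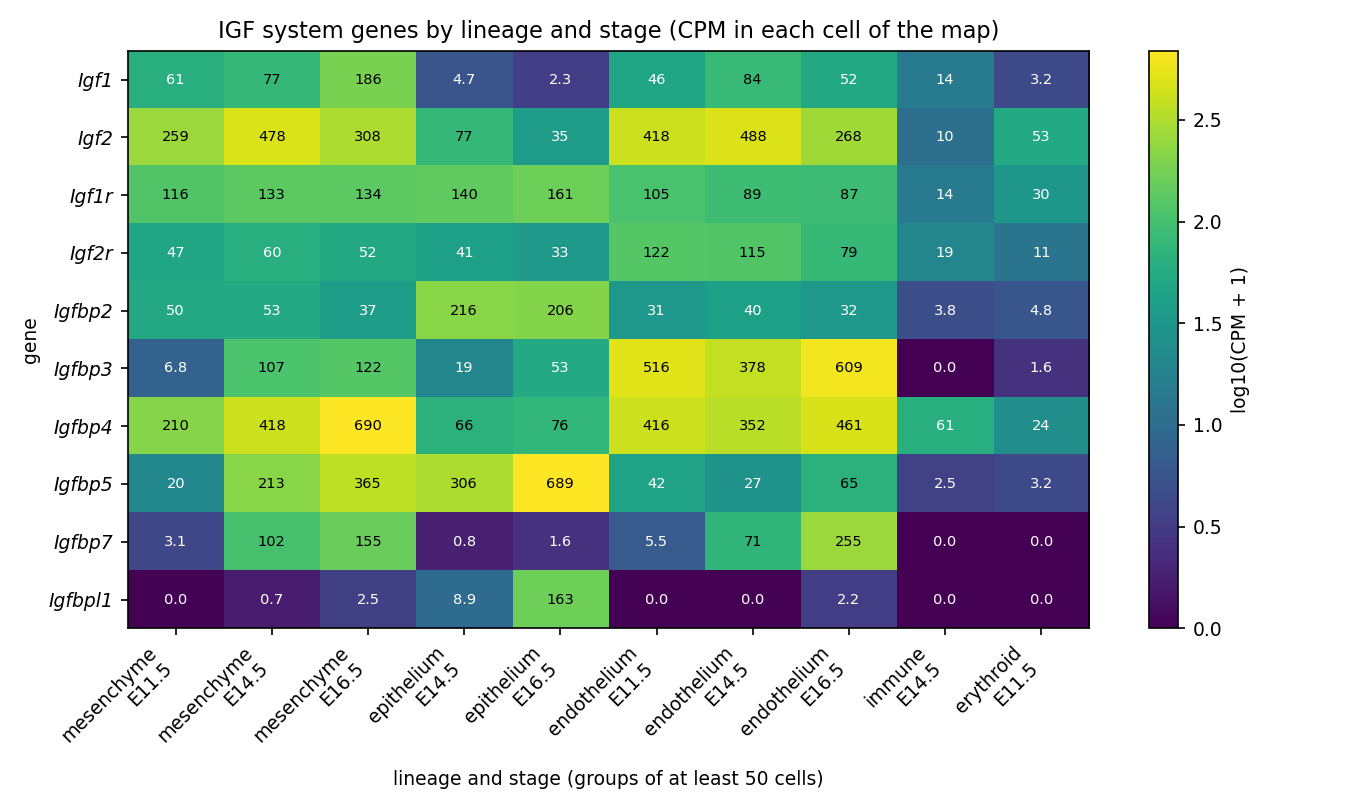
Level of each of the 10 genes (rows) in the 10 groups of at least 50 cells (columns), as CPM printed in each square and as log10(CPM + 1) in colour. *Igfbp3* is brightest in the 3 endothelial columns (378 to 609 CPM), *Igfbp2* in the 2 epithelial columns (216 and 206 CPM), and *Igfbpl1* stands out in E16.5 epithelium (163 CPM).

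*Igf1*, the ligand that acts mainly through *Igf1r* in late gestation and after birth, had 61.4 CPM in mesenchyme at E11.5 (interval 59.0 to 63.8), 77.3 CPM at E14.5 (73.3 to 81.6) and 186 CPM at E16.5 (180 to 193). In endothelium the levels were 46.0, 84.0 and 51.8 CPM, and in epithelium 4.67 CPM at E14.5 and 2.25 CPM at E16.5. E16.5 mesenchyme was thus the highest group, the 3 endothelial intervals overlapped one another, and among them that of E14.5 alone overlapped E14.5 mesenchyme. The epithelial intervals overlapped that of E11.5 erythroid cells, at 3.21 CPM (0.388 to 11.6), which come from another matrix and dissected tissue. The few erythroid cells of the later stages had 0 UMIs, with intervals up to 51.7 CPM (14 cells) at E14.5 and 96.6 CPM (5 cells) at E16.5. The part of free RNA in the epithelial levels was not tested. Immune cells had 89.3 CPM at E11.5 (47 cells) and 13.9 CPM at E14.5. The epithelial level was 16.6-fold lower than the mesenchymal level at E14.5 (interval 11.1 to 26.0) and 82.7-fold lower at E16.5 (58.5 to 121). The E16.5 to E14.5 ratio in mesenchyme was 2.41-fold (2.26 to 2.57).

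*Igf2*, the main fetal growth ligand, was the more abundant of the pair in every group of at least 50 cells except immune cells of E14.5, where *Igf1* and *Igf2* had 11 and 8 UMIs. Mesenchyme had 259 CPM at E11.5, 478 CPM at E14.5 and 308 CPM at E16.5, and endothelium 418, 488 and 268 CPM. Epithelium had 76.8 CPM at E14.5 and 35.4 CPM at E16.5, against 10.1 CPM in immune cells of E14.5 and 52.9 CPM in erythroid cells of E11.5. The few erythroid cells of the later stages had 112 CPM (48.4 to 221, 14 cells) at E14.5 and 26.2 CPM (0.663 to 146, 5 cells) at E16.5. E14.5 endothelium, E14.5 mesenchyme and E11.5 endothelium had overlapping intervals at the top of the order, and E16.5 epithelium was below all mesenchymal and endothelial groups. The epithelial level was 6.22-fold lower than the mesenchymal at E14.5 (5.62 to 6.90) and 8.71-fold lower at E16.5 (7.94 to 9.56), and within epithelium it was 2.17-fold lower at E16.5 than at E14.5 (1.89 to 2.48). *Igf2* made up 80.8%, 86.1% and 62.3% (61.2% to 63.4%) of the *Igf1* and *Igf2* UMIs of mesenchyme in order of stage, the last being the lowest of the mesenchymal, epithelial and endothelial groups. Mesenchymal cells, 2312 of the 4511 cells kept at E16.5, accounted for 86.5% of the *Igf1* UMIs and 73.4% of the *Igf2* UMIs.

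*Igf1r*, which encodes the signalling receptor, stayed within 2-fold of mesenchyme in epithelium and endothelium. It had 116, 133 and 134 CPM in mesenchyme at the 3 stages, 140 and 161 CPM in epithelium at E14.5 and E16.5, and 105, 88.9 and 86.6 CPM in endothelium. No comparison of lineages or stages reached 2-fold for this gene, but epithelium was not compared with endothelium. The epithelial intervals were 130 to 151 CPM at E14.5 and 155 to 168 CPM at E16.5. They lay above the endothelial intervals of those stages, 66.9 to 116 and 68.4 to 108 CPM. The level in E16.5 epithelium (155 to 168 CPM) was above those of the other groups of at least 50 cells, while immune cells of E14.5 had 13.9 CPM and erythroid cells 30.4 CPM.

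*Igf2r*, which encodes the receptor that clears IGF2, was higher in endothelium, with 122, 115 and 78.8 CPM at the 3 stages, than in mesenchyme, with 47.1, 59.5 and 51.8 CPM, or epithelium, with 40.6 and 32.9 CPM. The endothelial to mesenchymal ratio was 2.58-fold (1.99 to 3.30), 1.93-fold (1.49 to 2.45) and 1.52-fold (1.17 to 1.94) in order of stage, so that it passed 2-fold at E11.5 alone. The 3 endothelial intervals overlapped, and so did those of E16.5 endothelium and E14.5 mesenchyme.

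**Figure D2:**
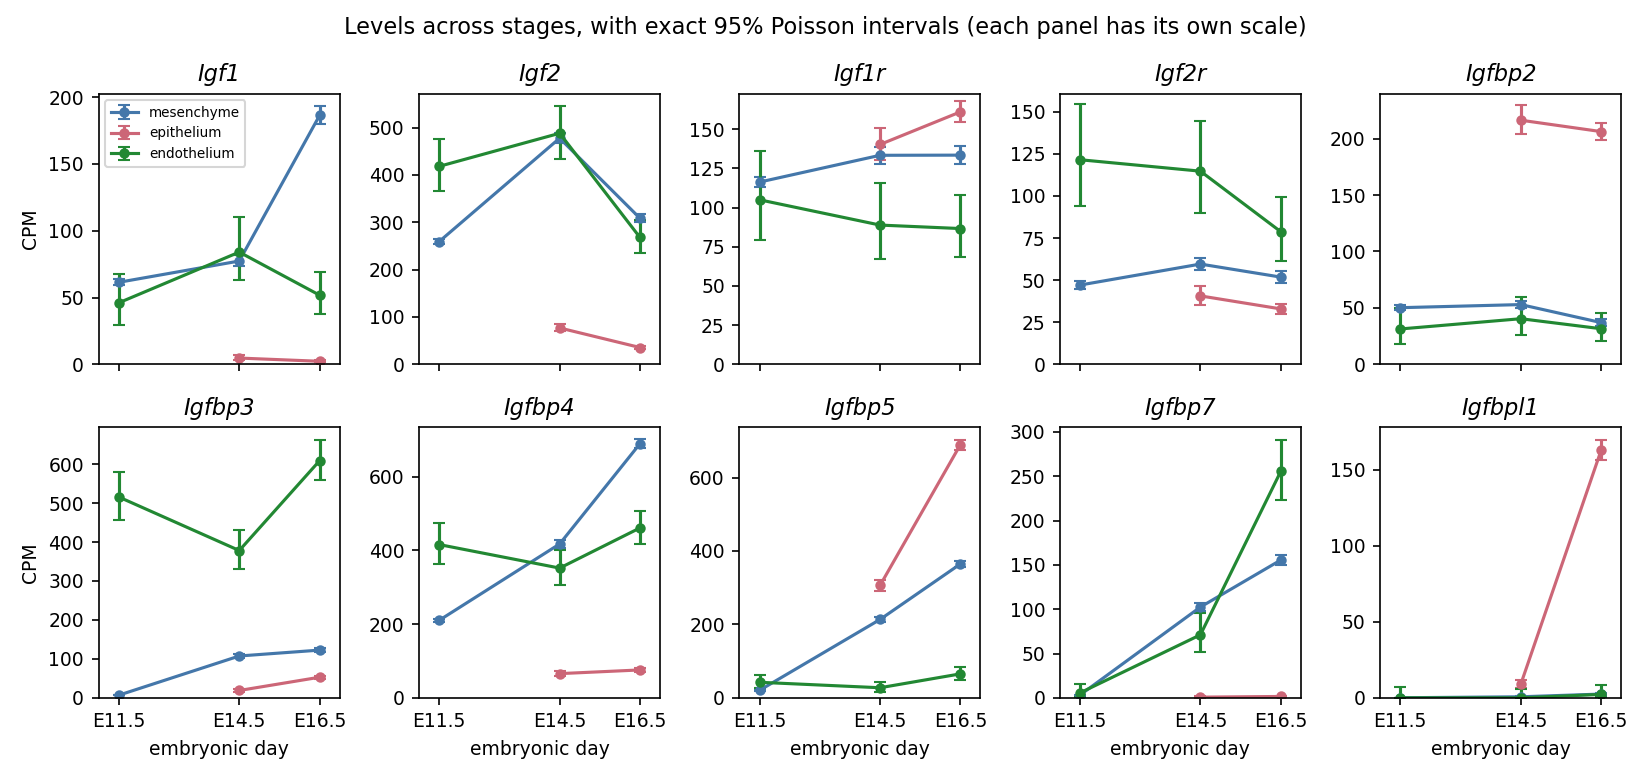
CPM of each gene (vertical axes, linear from 0, a separate scale for each panel) over the 3 stages (horizontal axes, embryonic day) in mesenchyme, epithelium and endothelium; points are the level over the summed cells of a group and bars the exact 95% Poisson interval. *Igf1*, *Igfbp3*, *Igfbp4*, *Igfbp5* and *Igfbp7* are among the genes with their highest mesenchymal levels at E16.5, and *Igfbpl1* goes from 8.94 to 163 CPM in epithelium.

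*Igfbp2*, a binding protein gene with a preference of its product for IGF2, was past 2-fold higher in epithelium than in mesenchyme at both stages compared. Epithelium had 216 CPM at E14.5 (204 to 229) and 206 CPM at E16.5 (199 to 214), whose intervals overlapped. Mesenchyme had 50.2, 52.9 and 37.0 CPM and endothelium 31.3, 40.4 and 31.5 CPM at the 3 stages. All groups outside epithelium were thus below it, and the epithelial to mesenchymal ratio was 4.09-fold at E14.5 (3.74 to 4.47) and 5.58-fold at E16.5 (5.11 to 6.10). The 9 epithelial cells of E11.5 had 84 UMIs of *Igfbp2*, or 660 CPM.

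*Igfbp5*, whose product binds IGFs and the extracellular matrix, had 306 CPM in epithelium at E14.5 (291 to 322) and 689 CPM at E16.5 (676 to 703). In mesenchyme it had 20.4, 213 and 365 CPM at the 3 stages, and in endothelium 42.4, 27.5 and 65.3 CPM. E16.5 epithelium was the highest group of at least 50 cells. Next among those groups came E16.5 mesenchyme and E14.5 epithelium with intervals that did not overlap, and E11.5 mesenchyme was among the lowest with endothelium. The ratio of epithelium to mesenchyme was 1.43-fold at E14.5 and 1.89-fold at E16.5 (1.83 to 1.95), both short of 2-fold. Between stages, the mesenchymal level was 10.5-fold higher at E14.5 than at E11.5 (9.73 to 11.3), and the epithelial level was 2.25-fold higher at E16.5 than at E14.5 (2.14 to 2.38). The epithelial difference fell short of 2-fold in 3 alternatives, with log2 ratios of 0.99 with cells thinned to 2000 UMIs, 0.92 as a mean over cells and 0.76 without the 5% of cells with the most UMIs. At E11.5 endothelium over mesenchyme was 2.08-fold from 23 endothelial UMIs, and as a mean over cells the direction was the opposite, at a log2 ratio of -0.10. The 9 epithelial cells of E11.5 had 126 UMIs (990 CPM) and the 38 muscle cells of that stage 106 UMIs (374 CPM).

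*Igfbpl1*, which encodes a protein related to IGFBP7, had few UMIs in mesenchyme and endothelium. Epithelial cells gave 65.7% and 80.7% of its UMIs in all cells kept at E14.5 and E16.5. At E16.5, where all cells kept had 2864 UMIs, most of those outside epithelium were in cells with markers of several lineages or with no lineage assigned. At E11.5 all cells kept had 2 UMIs of *Igfbpl1*. At E14.5, epithelium had 46 UMIs, or 8.94 CPM (6.55 to 11.9), and mesenchyme 12 UMIs, or 0.692 CPM, and at E16.5 epithelium had 2310 UMIs, or 163 CPM (156 to 170), and mesenchyme 40 UMIs, or 2.47 CPM (1.77 to 3.37). Immune cells of E14.5 and endothelial cells of E11.5 and E14.5 had 0 UMIs, with intervals up to 4.67, 6.79 and 5.96 CPM. The epithelial level at E16.5 was 65.8-fold that of mesenchyme (48.2 to 92.4) and 18.2-fold that of E14.5 epithelium (13.6 to 24.9). The latter ratio was 5.28 on the log2 scale, in place of 4.19, with cells thinned to 2000 UMIs. That thinned ratio has no interval and rests on few UMIs at E14.5, where 0.779% of 642 thinned epithelial cells had a UMI (0.253% to 1.81%). At E16.5, 32.3% of epithelial and 1.56% of mesenchymal cells had a UMI, at median depths of 6759 and 5798 UMIs. With cells thinned to 2000 UMIs, which kept 1369 of 1455 epithelial and 2268 of 2312 mesenchymal cells, the shares were 18.6% and 0.706%.

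*Igfbp3*, the gene of the main IGF carrier in serum, was highest in endothelium, with 516 CPM at E11.5 (457 to 580), 378 CPM at E14.5 (331 to 430) and 609 CPM at E16.5 (559 to 662). Mesenchyme had 6.76, 107 and 123 CPM, and epithelium 18.9 and 52.9 CPM. No other group of at least 50 cells overlapped the endothelial intervals, of which those of E11.5 and E16.5 overlapped each other. Levels within mesenchyme were uneven (described below). The endothelial level was 76.3-fold (64.4 to 90.3), 3.52-fold (3.06 to 4.03) and 4.97-fold (4.51 to 5.47) the mesenchymal in order of stage, with the E14.5 ratio at 2.54 in place of 1.82 on the log2 scale as a mean over cells. In mesenchyme the level was 15.9-fold higher at E14.5 than at E11.5 (14.01 to 18.1), or 3.04 in place of 3.99 on the log2 scale as a mean over cells. In epithelium it was 2.81-fold higher at E16.5 than at E14.5 (2.27 to 3.50), and it remained 2.32-fold lower there than in mesenchyme (2.13 to 2.52).

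*Igfbp4*, whose product restrains IGF action until it is cut by pappalysins, was the most abundant binding protein transcript of mesenchyme, with 210 CPM at E11.5 (206 to 215), 418 CPM at E14.5 (408 to 427) and 690 CPM at E16.5 (677 to 703). Endothelium had 416, 352 and 461 CPM and epithelium 65.7 and 75.7 CPM. The epithelial intervals, 58.9 to 73.1 and 71.3 to 80.4 CPM, overlapped that of immune cells of E14.5, at 60.8 CPM (44.8 to 80.6), while the 24.0 CPM of erythroid cells of E11.5 (13.5 to 39.6) lay below both. The few erythroid cells of the same stages had wide intervals that held the epithelial levels. They were 84.0 CPM (30.8 to 183) in 14 cells of E14.5 and 52.4 CPM (6.34 to 189) in 5 cells of E16.5. The level in epithelium was 6.36-fold lower than in mesenchyme at E14.5 (5.70 to 7.11) and 9.11-fold lower at E16.5 (8.56 to 9.71). The mesenchymal ratios between stages were 1.99-fold (1.93 to 2.05) from E11.5 to E14.5 and 1.65-fold (1.60 to 1.70) from E14.5 to E16.5.

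*Igfbp7*, which encodes a matrix-associated protein with low affinity for IGFs, was absent or nearly so at E11.5, with 3.07 CPM in mesenchyme and 3 UMIs in endothelium. At E14.5 and E16.5 mesenchyme had 102 and 155 CPM and endothelium 71.1 and 255 CPM, while epithelium had 4 and 22 UMIs, or 0.777 and 1.55 CPM. Both later mesenchymal levels were above every E11.5 group of at least 50 cells, and E16.5 endothelium was the highest of the groups of at least 50 cells. In mesenchyme the level was 33.4-fold higher at E14.5 than at E11.5 (27.9 to 40.3), and in endothelium 12.9-fold (4.13 to 64.8) and then 3.59-fold higher at E16.5 than at E14.5 (2.59 to 5.08), the last being larger, at 2.60 against 1.85 on the log2 scale, with thinned cells. The epithelial level was 132-fold lower than the mesenchymal at E14.5 (51.4 to 484) and 100.3-fold lower at E16.5 (66.1 to 160). The 27 glial cells of E14.5 had 54 UMIs, or 478 CPM (359 to 624).

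**Figure D3:**
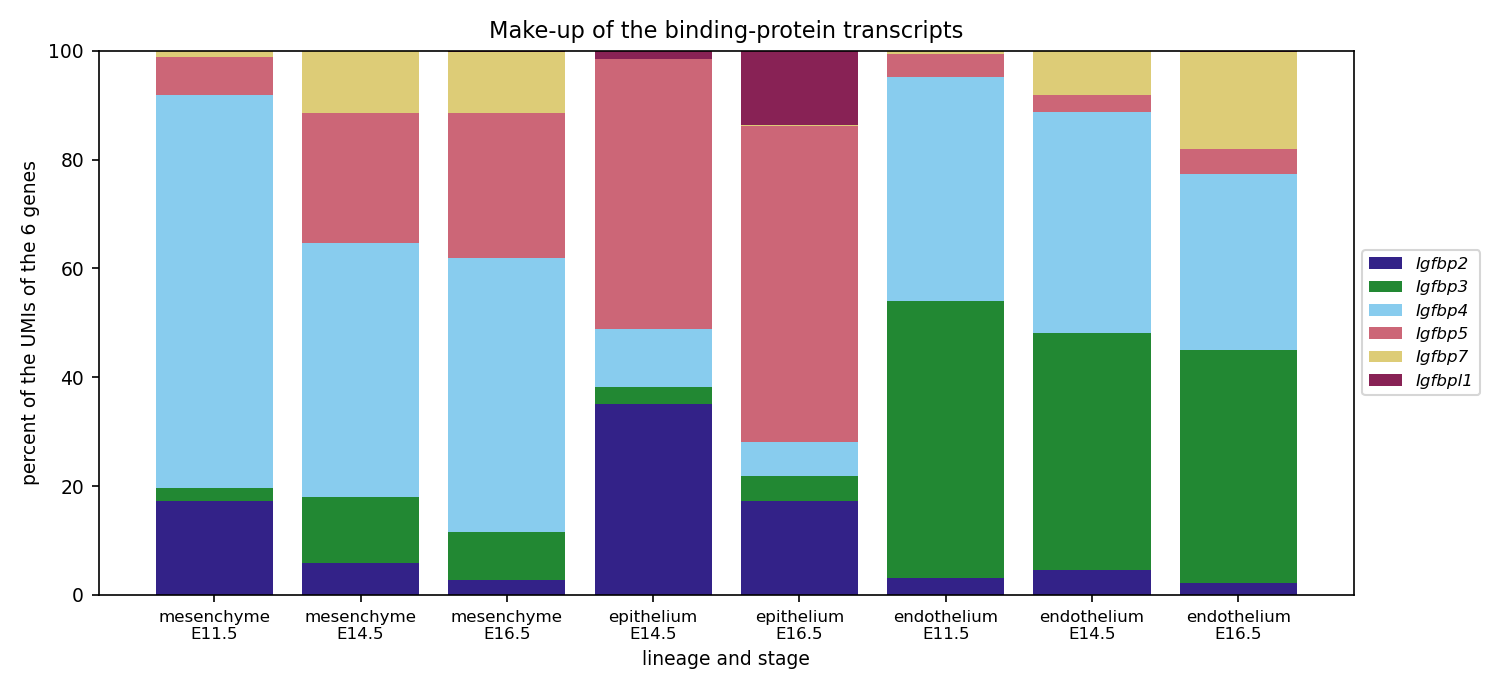
Share of each binding protein gene in the summed UMIs of the 6 genes (vertical axis, percent) for each lineage and stage (bars). *Igfbp4* takes the largest part of the mesenchymal bars, *Igfbp5* that of the epithelial bars and *Igfbp3* that of the endothelial bars.

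Summed over the 6 binding protein genes, mesenchyme had 291 CPM at E11.5, 895 CPM at E14.5 and 1372 CPM at E16.5, epithelium 617 and 1188 CPM, and endothelium 1011, 869 and 1425 CPM. *Igfbp4* made up 72.3%, 46.7% and 50.3% of the mesenchymal sum, *Igfbp5* 49.6% and 58.0% of the epithelial sum, and *Igfbp3* 51.0%, 43.5% and 42.7% of the endothelial sum. *Igfbp4* made up 41.2%, 40.5% and 32.4% of the endothelial sum, and at E14.5 its interval (36.3% to 44.8%) overlapped that of *Igfbp3* (39.3% to 47.8%). Within the epithelial sum, *Igfbp2* went from 35.1% (33.4% to 36.8%) to 17.4% (16.8% to 17.9%) and *Igfbpl1* from 1.45% (1.06% to 1.93%) to 13.7% (13.2% to 14.2%) between E14.5 and E16.5.

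The counts of members past 2-fold are read against all genes with at least 20 CPM in 1 of the groups and at least 20 UMIs over both. For epithelium against mesenchyme at E14.5, 1 of the 9 members that passed this limit was higher (*Igfbp2*) and 5 were lower (*Igf1*, *Igf2*, *Igfbp3*, *Igfbp4* and *Igfbp7*), where 8.13% of all 6110 genes were higher and 8.33% were lower. At E16.5, 2 of 10 were higher (*Igfbp2* and *Igfbpl1*) and the same 5 were lower, where 7.48% of 6521 genes were higher and 9.12% were lower. The median ratio of the members was 0.176 and then 0.534, against 1.03 and 1.04 over all genes. A larger part of the members than of all genes was thus past the limit on the lower side.

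For endothelium against mesenchyme, 3 of 8 members were higher at E11.5 (*Igf2r*, *Igfbp3* and *Igfbp5*) and 0 were lower, where 15.8% of 6751 genes were higher and 13% were lower. At E14.5, 1 of 9 was higher (*Igfbp3*) and 1 was lower (*Igfbp5*, by 7.77-fold, 4.85 to 13.4), beside 16.1% and 13.6% of 6353 genes. At E16.5, 1 of 9 was higher (*Igfbp3*) and 2 were lower (*Igfbp5*, by 5.59-fold, 4.32 to 7.37, and *Igf1*, by 3.60-fold, 2.69 to 4.93), beside 15.3% and 14.7% of 6781 genes. The median ratios of the members were 1.796, 0.843 and 0.853, against 0.958, 0.976 and 0.969 over all genes, and the counts at E14.5 and E16.5 were near the shares of all genes.

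Between stages, mesenchyme had 3 of 9 members higher at E14.5 than at E11.5 (*Igfbp3*, *Igfbp5* and *Igfbp7*) and 0 lower, where 6.6% of 6182 genes were higher and 7.18% were lower, and the median ratio was 1.84 for the members and 0.860 for all genes, so that the typical gene was slightly lower at E14.5. The count was 5 with thinned cells and as a mean over cells, where *Igf2* and *Igfbp4* also passed. From E14.5 to E16.5, 1 of 9 was higher in mesenchyme (*Igf1*) and 0 were lower, beside 3.57% and 1.35% of 5995 genes. In epithelium 3 of 8 were higher at E16.5 (*Igfbp3*, *Igfbp5* and *Igfbpl1*) and 1 was lower (*Igf2*), beside 3.53% and 1.35% of 6070 genes, with median ratios of 1.15 and 1.06. In endothelium 1 of 9 was higher at E14.5 than at E11.5 (*Igfbp7*) and 0 were lower, beside 4.75% and 8.14% of 6018 genes. At E16.5 over E14.5 in endothelium, 2 of 9 were higher (*Igfbp5*, by 2.38-fold, 1.36 to 4.35, and *Igfbp7*) and 0 were lower, beside 5.17% and 1.88% of 6017 genes. The comparisons share groups and are not independent of one another.

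Within epithelium, cells were clustered on genes other than the members, and clusters are given by number and by the genes that lead them. At E14.5, cluster 0 (253 cells, with *Krt15* and *Meis2* among its leading genes) had 827 CPM of *Igfbp5* (785 to 871) and held 91.6% of the epithelial *Igfbp5* UMIs with 36.4% of the cells, while the other clusters had 30.0 to 122 CPM. The share was 27.8% at a Leiden resolution of 0.8, 68.9% with thinned cells and 66.7% without the 5% of cells with the most UMIs. *Igfbpl1* had 106 CPM (75.5 to 145) in cluster 3 (53 cells, led by *Fgf15*, *Fgf4* and *Notum*) and 0 to 3.86 CPM in the others, so that 84.8% of its 46 epithelial UMIs came from 7.63% of the cells. *Igfbp3* was highest in cluster 1 (182 cells, led by *Trabd2b*, *Fez1* and *Sema3e*), at 41.7 CPM, and *Igfbp2* was spread more evenly, between 167 and 289 CPM in the 4 clusters of more than 50 cells. The smallest, cluster 4 (40 cells), had 53.4 CPM of *Igfbp2* (7 UMIs, 21.5 to 110). *Fgf4*, the gene of an FGF ligand, marks signalling centres of the tooth, and *Krt15* is a keratin gene of basal epithelium.

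At E16.5, *Igfbpl1* had 434 CPM (412 to 457) in cluster 0 (406 cells, led by *Ambn*, *Stmn2* and *Slc40a1*), which held 63.9% of its epithelial UMIs with 27.9% of the cells, and 179 CPM in cluster 2 (272 cells), led by the cell cycle and histone genes *Kpna2*, *Hist1h2ae* and *Hist1h2ap*. *Ambn* encodes an enamel matrix protein of ameloblasts, and *Stmn2* was on the list of neuron markers. The summed neuron markers had 894 CPM in cluster 0, 698 CPM in cluster 2 and 243 CPM in cluster 1, and 329 and 578 CPM in all epithelium at E14.5 and E16.5, with 8 of 9 markers detected at each. Of the E16.5 cells, 232 had 3 or more neuron and 3 or more epithelial markers, and the part of neuron markers in the *Igfbpl1* result was not tested. In cluster 1 (330 cells, led by *Nts*, *Angpt1* and *Fat2*) *Igfbpl1* had 2.38 CPM, whereas *Igfbp5* had 1252 CPM (1212 to 1293), *Igfbp2* 356 CPM and *Igfbp3* 178 CPM, the highest level of each among the 6 clusters. Cluster 3 (242 cells, led by *Pcp4*, *Sema3e* and *Crabp1*) combined 294 CPM of *Igfbp2* with 158 CPM of *Igfbp5*, the lowest *Igfbp5* level along with cluster 5 (87 cells). *Igf1r* ranged from 110 to 210 CPM in clusters 0 to 4 and had 9.91 CPM (3 UMIs, 2.04 to 29.0) in cluster 5. That cluster, led by *AY036118*, *Pcp4* and *Rpl36a-ps1*, had a median depth of 2848 UMIs and 1 UMI of *Igf2r*. The quality of its cells beyond the filter was not tested. At a Leiden resolution of 0.2, 1 cluster held 95.1% of the epithelial *Igfbpl1* UMIs with 47.3% of the cells. At a resolution of 0.8 the cluster with its highest level held 62.2% with 22.3% of the cells.

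**Figure D4:**
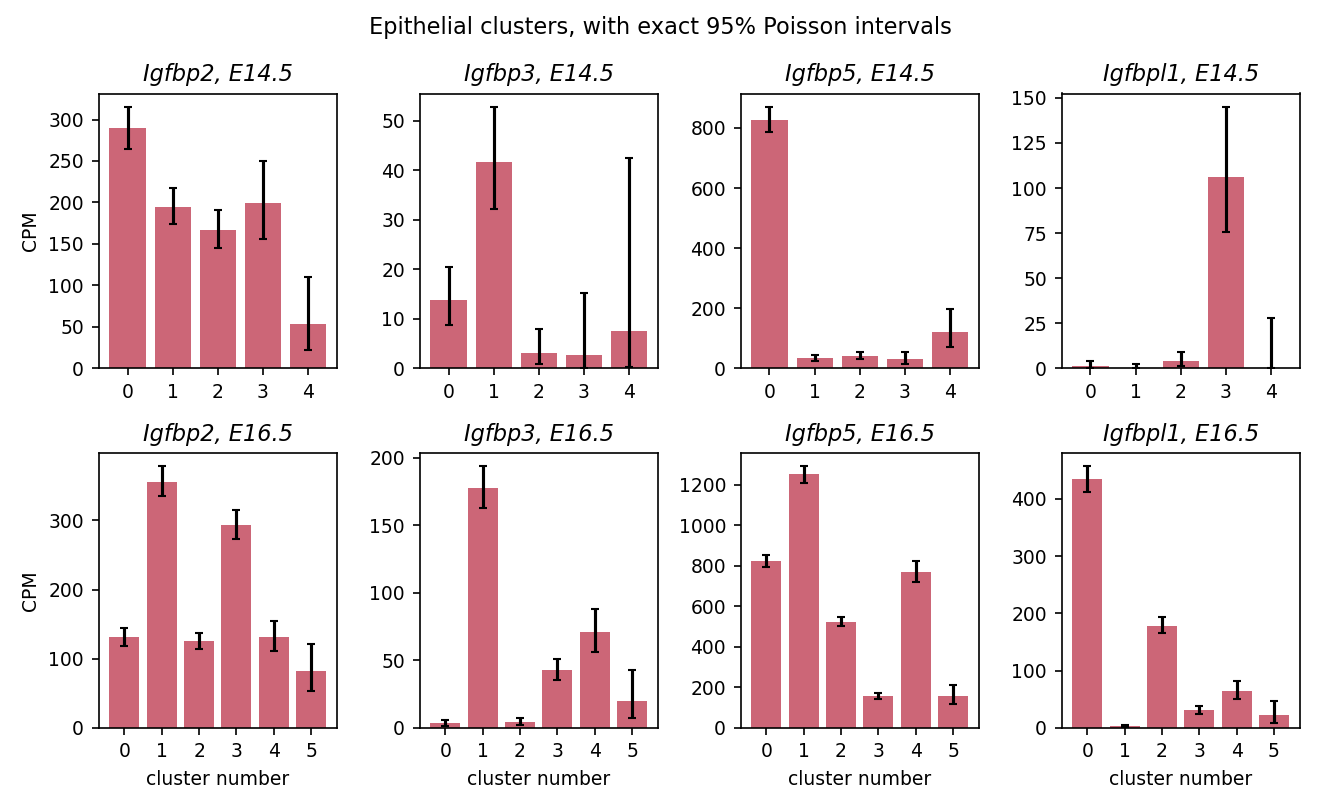
CPM (vertical axes, linear from 0) of *Igfbp2*, *Igfbp3*, *Igfbp5* and *Igfbpl1* in each epithelial cluster (horizontal axes, cluster number) at E14.5 (top) and E16.5 (bottom), with exact 95% Poisson intervals; numbers are not matched between stages. *Igfbp5* and *Igfbpl1* peak in different clusters at both stages, clusters 0 and 3 at E14.5 and clusters 1 and 0 at E16.5.

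Mesenchyme was also uneven. At E16.5 *Igf1* ran from 8.72 CPM in cluster 0 (667 cells, led by *Unc13c*, *Lypd1* and *Lratd1*) to 963 CPM (913 to 1014) in cluster 4 (271 cells, led by *Lsamp*, *Calca* and *Bmp3*), which held 46.9% of the mesenchymal *Igf1* UMIs with 11.7% of the cells. *Igfbp5* was also highest in cluster 4, at 1343 CPM, followed by cluster 5 (136 cells, led by *Ostn*, *Pax3* and *Aspn*) with 1012 CPM, where *Igf2* was highest at 856 CPM. *Igfbp4* was highest in cluster 0, at 1335 CPM, in which *Igfbp5* had 80.8 CPM. *Igfbp3* was highest in cluster 2 (418 cells, led by *Aldh1a2*, *Pdzrn4* and *Slc1a3*), at 541 CPM, or 65.7% of its mesenchymal UMIs. Clusters 1 (459 cells, led by *Plk1*, *Nusap1* and *Sgo2a*) and 3 (361 cells, led by *Ifitm5*, *D030025E07Rik* and *Smpd3*), of which the first is led by genes of mitosis, had lower *Igfbp4* (328 and 294 CPM) than the other 4. Beside the 541 CPM of *Igfbp3* in mesenchymal cluster 2, all endothelial cells had 378 CPM at E14.5 and 609 CPM at E16.5. Beside the 1343 CPM of *Igfbp5* in mesenchymal cluster 4, the highest epithelial cluster of E16.5 had 1252 CPM.

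At E14.5, mesenchymal cluster 0 (1476 cells, led by *Ibsp*, *Matn4* and *Gm49708*) had the highest *Igfbp5* (638 CPM, 72.3% of the mesenchymal UMIs) and *Igf2* (798 CPM), and *Igf1* at 165 CPM. *Igf1* was highest in cluster 4 (443 cells, led by *Ccnd1*, *Fgf18* and *Rtl3*), at 213 CPM, and *Igfbp2* in cluster 3 (560 cells, with *Gdf10* and *Ebf2* among its leading genes), at 167 CPM. Cluster 2 (622 cells, led by *Hist1h2bc*, *Cdc6* and *Crym*) had the lowest *Igfbp5* (14.4 CPM) and the highest *Igfbp3* (185 CPM) of the 6 clusters, and *Igf1* at 8.21 CPM. *Ibsp* encodes a bone matrix protein, and *Cdc6* a protein of DNA replication.

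At E11.5, *Igf2* ranged from 98.2 CPM in mesenchymal cluster 3 (688 cells, led by *3110099E03Rik*, *Emx2* and *Gbx2*) to 486 CPM in cluster 1 (1012 cells, led by *Foxf1*, *Syt6* and *Cavin2*). Of the 127 mesenchymal *Igfbp7* UMIs of that stage, 84.3% came from cluster 2 (982 cells, led by *Pax3*, *Hand1* and *Gm43376*). Of the 280 mesenchymal *Igfbp3* UMIs, 71.4% came from cluster 0 (1450 cells, led by *Osr2*, *Pax9* and *Zmat4*). The *Igfbp3* level of cluster 0, 14.7 CPM (12.8 to 16.9), overlapped that of cluster 5, 18.1 CPM (11.6 to 26.9). Globin genes were among the leading genes of clusters 4 and 5 (644 and 551 cells), whose *Igf2* levels of 252 and 321 CPM lay between those of clusters 3 and 1; the part of red cell RNA in the levels was not tested.

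**Figure D5:**
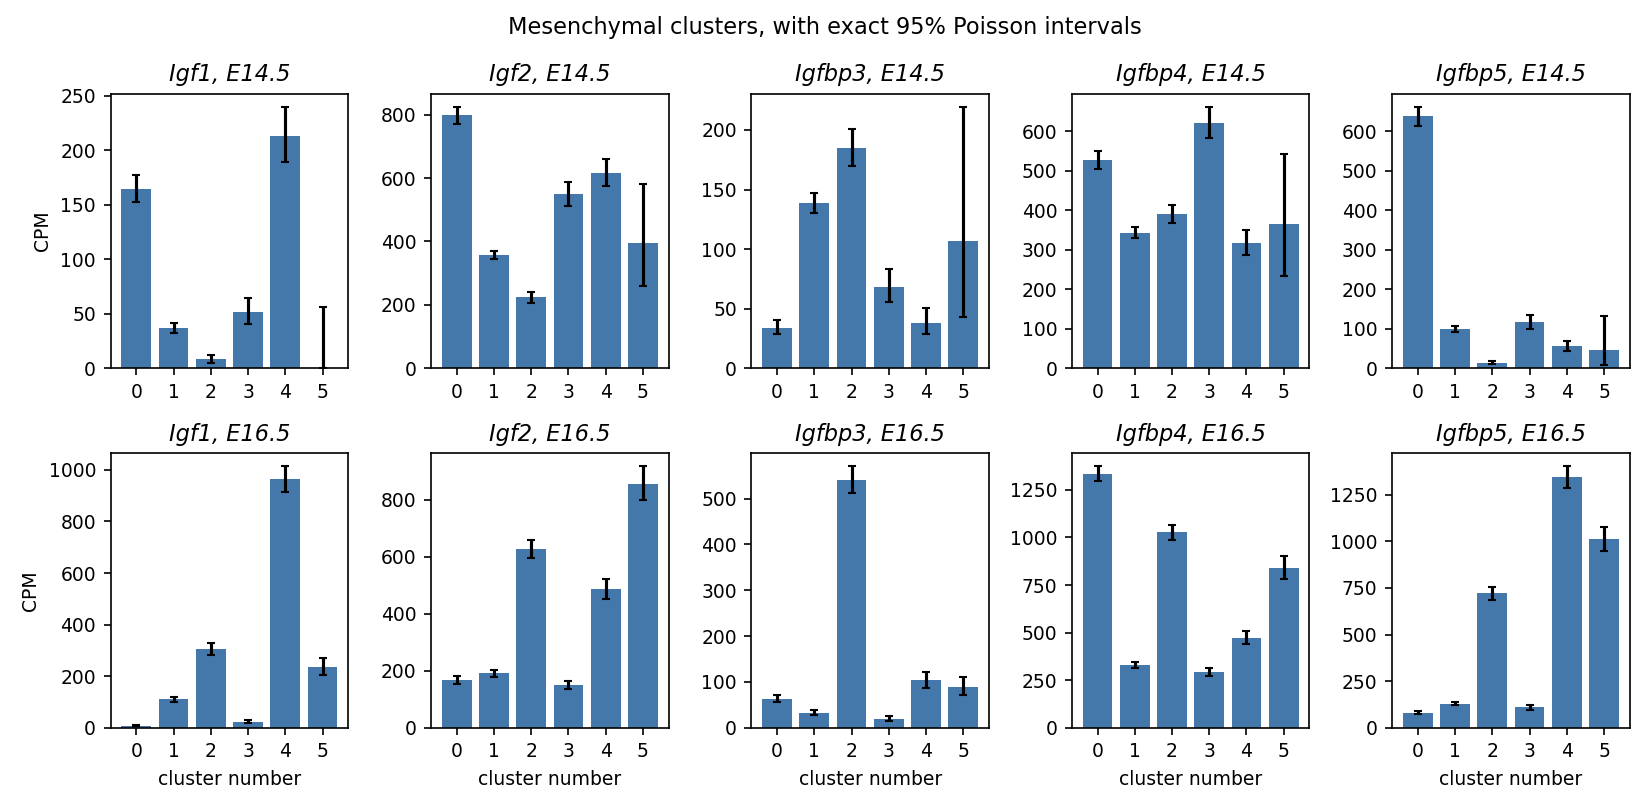
CPM (vertical axes, linear from 0) of *Igf1*, *Igf2*, *Igfbp3*, *Igfbp4* and *Igfbp5* in each mesenchymal cluster (horizontal axes, cluster number) at E14.5 (top) and E16.5 (bottom), with exact 95% Poisson intervals; numbers are not matched between stages. At E16.5 *Igf1* and *Igfbp5* are both highest in cluster 4 and *Igfbp4* in cluster 0.

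Endothelial clusters were small. At E14.5 *Igfbp3* had 565 CPM (451 to 699) in cluster 2 (25 cells, led by *Edn1*, *Thbs1* and *Vwf*), whose interval overlapped that of cluster 1 at 394 CPM (321 to 479). At E16.5 it had 1067 CPM (954 to 1190) in cluster 1 (31 cells, led by *Gja5*, *Gja4* and *Sema3g*), against 364 and 395 CPM in the others. *Gja5* and *Gja4* encode connexins of arterial endothelium. *Igf2* was highest in the same clusters, at 871 CPM at E14.5 and 467 CPM at E16.5. Hemoglobin genes were among the leading genes of cluster 0 of E16.5 endothelium (45 cells), which had 364 CPM of *Igfbp3*; the part of red cell RNA in this level was not tested.

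Of 35 further genes of the pathway (other ligands, receptors and binding proteins, proteases, adaptors and kinases, and regulators of *Igf2*), between 15 and 20 passed the limit on low values in a comparison. In epithelium against mesenchyme, 2 of 19 were higher and 3 lower at E14.5, and 2 of 19 higher and 5 lower at E16.5, where the shares over all genes were 8.13% and 8.33%, and then 7.48% and 9.12%. The higher counts were near those shares. Among the lower genes at both stages were *Pappa2*, the gene of a protease that cuts IGFBP3 and IGFBP5, with 49.2 and 57.9 CPM in mesenchyme and 4 UMIs and 1 UMI in epithelium, *Grb10*, an imprinted adaptor that dampens signalling by the receptors (8.11-fold and 32.9-fold lower), and *H19*, the imprinted RNA encoded beside *Igf2* (2.21-fold and 4.76-fold lower). *Shc1* and *Foxo3* were 2.51-fold and 2.57-fold lower at E16.5. *Pik3r3*, a regulatory subunit of PI3-kinase, was 2.79-fold and 3.03-fold higher in epithelium, *Foxo1*, a transcription factor restrained by AKT, was 2.43-fold higher at E14.5, and *Igf2bp1* was 2.65-fold higher at E16.5. *Ins1*, *Igfbp1*, *Igfbp6* and *Igfals* stayed below 20 CPM in all groups of mesenchyme, epithelium and endothelium.

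Endothelium against mesenchyme gave 4 of 17 higher and 2 lower at E11.5, 2 of 20 higher and 4 lower at E14.5, and 4 of 20 higher and 5 lower at E16.5. Over all genes the shares higher and lower were 15.8% and 13%, 16.1% and 13.6%, and 15.3% and 14.7%, so most of these counts were near the background. *Foxo1* was higher at the 3 stages, by 6.998-fold (4.65 to 10.2), 3.41-fold (2.18 to 5.13) and 2.41-fold (1.74 to 3.27). *Stc1*, the gene of a secreted pappalysin inhibitor, was 9.57-fold higher at E14.5 (4.82 to 17.9) and 23.4-fold higher at E16.5 (13.9 to 39.8). *Irs2*, an adaptor of the receptors, had 2, 0 and 1 UMIs in endothelium against 28.6, 25.0 and 27.8 CPM in mesenchyme, and *Pappa2* had 0 UMIs in endothelium at each stage. *Insr*, the insulin receptor gene, was 2.29-fold higher at E16.5 (1.54 to 3.32).

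Between stages, the pathway list had 1 of 18 genes higher and 3 lower in mesenchyme at E14.5 over E11.5, 1 of 19 higher and 2 lower at E16.5 over E14.5, 1 of 15 higher and 3 lower in epithelium, and in endothelium 0 of 17 higher and 3 lower, then 0 of 16 higher and 1 lower. In the same order the shares of all genes higher and lower were 6.6% and 7.18%, 3.57% and 1.35%, 3.53% and 1.35%, 4.75% and 8.14%, and 5.17% and 1.88%. *Pappa2* went from 5 UMIs to 854 UMIs in mesenchyme between E11.5 and E14.5. *Igf2bp1*, which encodes a protein that binds *Igf2* mRNA, was 5.56-fold lower in mesenchyme at E14.5 than at E11.5 and 4.46-fold lower at E16.5 than at E14.5, 2.87-fold lower in epithelium at E16.5 than at E14.5, and 2.96-fold lower in endothelium at E14.5 than at E11.5. *H19* was lower at E16.5 than at E14.5 in all 3 lineages, by 2.26-fold in mesenchyme, 4.87-fold in epithelium and 2.14-fold in endothelium. *Pik3r1*, a regulatory subunit of PI3-kinase, was 2.15-fold higher in mesenchyme and 3.85-fold higher in epithelium at E16.5.

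Over the 10 groups of at least 50 cells, the genes of most similar pattern among 8560 were ranked by Pearson's r of log2 levels with 10 CPM added, as a description over groups that share matrices. For *Igf1* these were *Il11ra1* (0.949), *Zcchc24* (0.943) and *Syne1* (0.933), and for *Igf2* *Hmcn1* (0.959), *Limch1* (0.956) and *Grb10* (0.95). For *Igf1r* they were *Jmy*, *Ryk* and *Cplane1* (0.976 to 0.983), and for *Igf2r* *Cdc42bpa*, *Lrch3* and *Yaf2* (0.971 to 0.978). *Igfbp2* was most like *Epb41l5*, *Cxxc4* and *Etv1* (0.948 to 0.960), *Igfbp3* most like *Cavin1*, *Aplp2* and *Rell1* (0.966 to 0.987), and *Igfbp4* most like *Asap1*, *Il11ra1* and *Gulp1* (0.967 to 0.989). *Igfbp5* was followed by *Phlda3*, *Gstm2* and *Lmo1* (0.939 to 0.984), *Igfbp7* by *Lepr*, *Adamts9* and *Nucb1* (0.899 to 0.939), and *Igfbpl1* by *Tulp2*, *Dok5* and *AI593442* (0.988 to 0.993). The values for *Igfbpl1* rest mainly on E16.5 epithelium, at 163 CPM. It had 8.94 CPM in E14.5 epithelium and at most 2.47 CPM in the rest. The values for *Igf1r* rest largely on immune cells of E14.5 and erythroid cells of E11.5, at 13.9 and 30.4 CPM. In mesenchyme, epithelium and endothelium *Igf1r* had 86.6 to 161 CPM. Among the members themselves the closest pairs were *Igf1* and *Igfbp4* (0.920), *Igf2r* and *Igfbp3* (0.889), and *Igf2* and *Igfbp4* (0.858), and the neighbours *Igfbp2* and *Igfbp5* had 0.828. The value of the neighbours rests in part on immune cells of E14.5 (3.80 and 2.53 CPM) and erythroid cells of E11.5 (4.81 and 3.21 CPM). Both genes were lowest there. In mesenchyme at E14.5 over E11.5, *Igfbp5* was 10.5-fold higher and *Igfbp2* 1.06-fold higher.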

How the data were processed

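Single cells of mandibles or lower incisor buds were captured with 10x Genomics 3′ chemistry. The authors aligned the reads to mm10 and made the deposited UMI count matrices with Cell Ranger 4.0.0, 1 matrix a stage, and use of strand is not given in the sources used here. The lowest total of a deposited barcode was 500 UMIs.

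From these counts, barcodes with fewer than 700 genes or more than 20% mitochondrial UMIs were dropped, and totals of the kept cells ranged from 864 to 123785 UMIs. A lineage required at least 3 of its markers, fewer than 3 of each other lineage called, and under 5% of UMIs from erythroid markers. Neuron markers were not used, so cells that held them were not excluded. Erythroid cells were those with at least 5% of UMIs from erythroid markers and fewer than 3 markers of each lineage called. This rule was set after marker counts were seen. Neuronal cells were not called. No doublet caller was run, and cells with markers of several lineages were left out. Since all barcodes of a stage carry 1 suffix, mandibles and litters could not be separated and a stage was 1 sample.

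The UMIs of a gene in all cells of a group were divided by all UMIs of those cells (CPM). Intervals are 95% intervals of counting error (exact Poisson for levels, Clopper-Pearson for shares, conditional binomial for ratios), and UMIs of 1 cell are not independent cells. A gene was past the fold at a ratio of 2 or more either way, with at least 20 CPM in 1 group and 20 UMIs over both. A group with fewer than 3 UMIs was set to 3 for a ratio, and groups had at least 50 cells. Clusters came from scanpy 1.11.5 within each lineage and stage (2000 variable genes without the members, 20 principal components, Leiden resolution 0.4). Tests on simulated counts preceded the analysis (Python 3.11.15, numpy 2.4.6, scipy 1.17.1).

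Members and lists were chosen with earlier results of these data known. Genes named were the 10 members, at most 6 pathway genes past the fold in a comparison, the 3 genes most like each member, and the 3 leading genes of a cluster, of which some are not reported here. Genes of the pathway list at low levels and the small groups of muscle, glial, E11.5 epithelial and later erythroid cells were singled out after their values were seen. Alternatives changed the filter on cells, the depth, the weight of cells, the genes in the total, the cells of highest depth, the lineage call, the CPM added, the filter on low values and the resolution.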

Additional observations from a re-analysis of the deposited data

Results flagged for a closer look

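*Igfbp3* was drawn out because its stage difference ran in opposite directions in a pair of lineages. At E14.5 over E11.5 it was 15.89-fold higher in mesenchyme (14.01 to 18.1) and 1.364-fold lower in endothelium (1.14 to 1.63). The endothelial *Igfbp3* value at E11.5 rested on 280 UMIs, of which 33 were in 1 of the 61 cells. These stages also differ in the dissected tissue, whole mandible and then incisor bud. *Igf1* was drawn out in the same way at E16.5 over E14.5, with a level 2.411-fold higher in mesenchyme (2.26 to 2.57) and 1.623-fold lower in endothelium (1.07 to 2.47). The endothelial *Igf1* value at E16.5 rested on 46 UMIs, of which 13 were in 1 cell. With 1 matrix a stage, neither difference between lineages was tested.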

How the results depend on the processing

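No paired analysis was possible because each stage was a single pooled matrix whose barcodes are not tied to replicates, and for the same reason no replicate could be left out. Of 765 ratios of members recomputed under 9 alternatives, 741 kept their side of the 2-fold limit and 22 changed sign, and of 279 that were past the limit 271 were still past it. The alternative with no minimum CPM changes only which genes are counted. Its ratios equal those given by construction, so those among the 765 and the 279 could not have moved. Of those past the limit, 1 changed sign, namely *Igfbp5* in endothelium over mesenchyme at E11.5, whose log2 ratio of 1.06 was -0.0999 as a mean over cells. The log2 ratio of *Igf1* in endothelium at E14.5 over E11.5, short of the limit at 0.87, was -0.40 as a mean over cells and -0.17 without the 5% of cells with the most UMIs. Of 86 recomputed counts of members past the fold, 82 were within 1.5 times the value given. The count for mesenchyme at E14.5 over E11.5 was 5 in place of 3 with thinned cells and also as a mean over cells, as *Igf2* and *Igfbp4* then passed the limit. That for mesenchyme at E16.5 over E14.5 was 2 in place of 1 with no minimum CPM, and that for endothelium at E14.5 over E11.5 was 2 in place of 1 with 4 markers required. The share of epithelial *Igfbpl1* UMIs in 1 cluster at E16.5 was given as 63.85%, with 27.9% of the cells. It was 95.11% with 47.29% of the cells at resolution 0.2, and 62.21% with 22.27% at 0.8. It was 56.94% with a stricter filter on cells (1000 genes or more, and mitochondrial UMIs up to 10%) and 71.57% with thinned cells. Without the 5% of cells with the most UMIs it was 53.76%, and with 4 markers 69.47%. The share of *Igfbp5* at E14.5, given as 91.56%, was 27.75% at resolution 0.8, 90.03% with a looser filter (200 genes or more), 68.91% with thinned cells and 66.67% without the cells of most UMIs. The cluster that held it had 36.4% of the epithelial cells as given and 10.79% at resolution 0.8. It had 37.82% with the looser filter, 26.48% with thinned cells and 28.67% without the cells of most UMIs. The causes were not tested. Thinned, or with the stricter filter, E11.5 endothelium had 44 and 45 cells and was not compared. Endothelial levels rest on 61 to 134 cells, and the spread between embryos is unknown.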

Other observations

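Groups of fewer than 50 cells were not compared, and their values are given as they stand. The 38 muscle cells of E11.5 had 374 CPM of *Igfbp5*, 356 CPM of *Igf2* (290 to 433), 194 CPM of *Igf1r*, 138 CPM of *Igfbp2* from 39 UMIs, and 0 UMIs of *Igfbp7* and *Igfbpl1*. The 27 glial cells of E14.5 had 54 UMIs of *Igfbp7*, 16 of *Igf1r* and 0 of *Igf1*, *Igfbp2* and *Igfbpl1*. The 9 epithelial cells of E11.5 had 126 UMIs of *Igfbp5*, 84 of *Igfbp2* and 41 of *Igf2*, against 0 of *Igf1*, *Igfbp7* and *Igfbpl1*. At E11.5, the 61 endothelial cells and the 5327 mesenchymal cells each gave 37.2% of the *Igfbp3* UMIs of all cells kept.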
